A study of Drosophila melanogaster with 4 samples.

Results

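The genes described here are 9 members of the Slit-Robo and Netrin guidance pathways of Drosophila melanogaster, out of 13945 protein-coding genes on the main chromosome arms. They were chosen by their symbols in the annotation and are the ligand gene sli, the receptor genes robo1, robo2 and robo3, the receptor regulator comm, the ligand genes NetA and NetB, and the receptor genes fra and unc-5. For each, all summits in the gene body or within 5000 bp of it were collected from the deposited peak lists. The lists come from chromatin immunoprecipitation and sequencing of exex, the fly homologue of the homeodomain factor HB9, in whole embryos aged 6 to 24 h from a transgenic line that carries exex fused at its C-terminus to GFP, with an anti-GFP antibody. The 4 libraries are biological replicates of that 1 group, so the data describe where the fusion protein was detected and allow no comparison of conditions. The sources used here do not state where the transgene is inserted or in how many copies, and the antibody is labelled exex in one field and anti-GFP in another. Whole embryos mix all cell types, so a summit does not say in which cells the protein was bound, and binding in few cells cannot be told apart from weak binding in many.

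Slit is a protein secreted by midline glia of the embryonic nerve cord, and it repels growth cones that carry Robo receptors. Robo1 keeps axons from crossing the midline wrongly, while Robo2 and Robo3 also help set how far from the midline an axon runs. Comm holds Robo1 back from the surface of axons that are still crossing. NetA and NetB are secreted near the midline and attract growth cones through Frazzled, the fly DCC receptor encoded by fra, whereas Unc-5 is the repulsive Netrin receptor. Genetic work in fly embryos has linked exex to the expression of robo2 and robo3 in subsets of neurons, and exex itself is best known in motor neurons whose axons grow ventrally.

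The sequences at the strongest peak of 4 members are shown first, because these genes lie past the end of the reproducible list, on which the comparison of members turns. They were read from Drosophila Release 6 (dm6) and are written 5' to 3' on the strand of the gene. Capitals mark matches on either strand to TAATTA or TAATTG, cores bound by Antennapedia-type homeodomains, or to CTTATC or TGATAA, which hold a GATA core and can overlap each other. For robo2 the 200 bases just upstream of the annotated start are given, which lie under the same peak apart from the outermost bases. For the other 3 genes the 201 bases centred on the summit are given.
robo2, chr2L:1420454-1420653, minus strand: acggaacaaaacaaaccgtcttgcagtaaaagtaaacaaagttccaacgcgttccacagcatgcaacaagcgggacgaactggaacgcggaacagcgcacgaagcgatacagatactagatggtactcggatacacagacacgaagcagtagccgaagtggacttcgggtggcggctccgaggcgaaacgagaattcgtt
robo3, chr2L:1288705-1288905, plus strand: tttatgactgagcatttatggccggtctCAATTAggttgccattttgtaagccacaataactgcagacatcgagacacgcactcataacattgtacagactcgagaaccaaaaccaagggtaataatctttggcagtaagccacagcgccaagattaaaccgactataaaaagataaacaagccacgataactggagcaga
comm, chr3L:15720082-15720282, minus strand: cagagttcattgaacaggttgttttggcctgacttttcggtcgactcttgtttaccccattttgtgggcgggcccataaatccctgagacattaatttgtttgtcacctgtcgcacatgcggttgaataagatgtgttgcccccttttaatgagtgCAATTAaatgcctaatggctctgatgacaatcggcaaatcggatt
NetA, chrX:14612434-14612634, minus strand: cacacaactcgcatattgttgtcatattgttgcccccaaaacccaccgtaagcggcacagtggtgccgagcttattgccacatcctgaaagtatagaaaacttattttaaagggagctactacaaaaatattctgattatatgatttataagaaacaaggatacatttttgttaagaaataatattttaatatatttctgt
The windows of robo3 and comm each hold 1 match, to the reverse complement of TAATTG, and the bases shown for robo2 and NetA hold none of the 4 sequences. The robo2 bases leave out its summit at 1420413, and none of the 4 lay within 100 bp of that summit either. TAATTG lay within 100 bp of 26.5% of all 7909 reproducible summits and in 17.3% of windows of equal length centred 1000 bp to either side. A match describes the letters and is not evidence of a bound site.

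Summits were unevenly spread over the 9 genes. The list that the authors filtered by irreproducible discovery rate (IDR), 7909 peaks in all, had a summit at 4 members and none at the other 5. The receptor gene fra had 8 summits, the ligand gene sli 7, the receptor gene unc-5 4 and the ligand gene NetB 1, or 20 in 18 called regions. The receptor genes robo1, robo2 and robo3, the receptor regulator comm and the ligand gene NetA had none. Over all protein-coding genes 55.4% had an IDR summit under the same rule, and 14.4% had 4 or more, as fra, sli and unc-5 did. The count of unc-5 depended on the flanks, with 3 summits within 2000 bp and 2 in the gene body only. Under both settings sli and fra kept 7 or more. The members are long, with a median body of 40.2 kb against 2.17 kb for all genes, so they have more room for a summit than most genes. Per length they held 0.482 IDR summits per 10 kb of body and flanks, against 0.591 over the main arms. No test was run on these counts, since the members were chosen with results of these data known. Of the 20 summits, 19 lay at genes on chromosome arm 2R, where sli, fra, unc-5 and robo1 lie, and 1 at the 5 members elsewhere. Of all IDR summits, 20.5% lay on that arm.

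**Figure D1:**
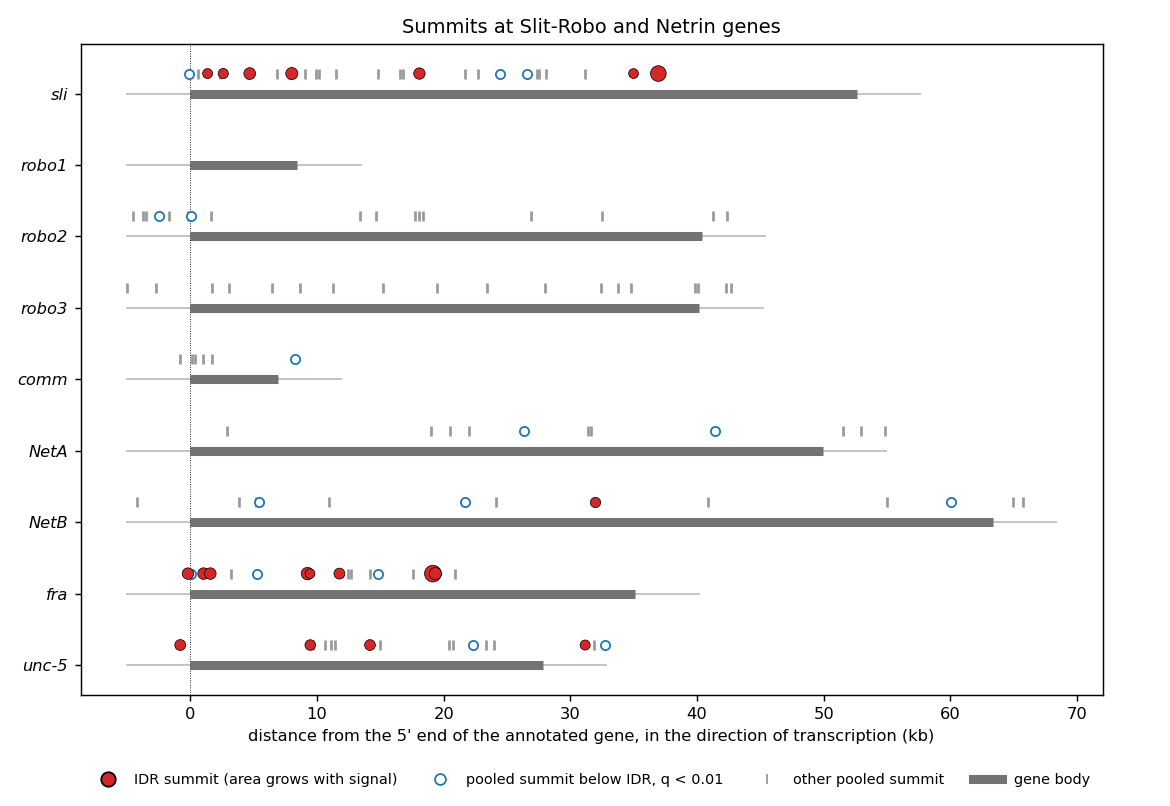
Positions of summits at the 9 genes, in kb from the 5' end of the annotated gene in the direction of transcription, with gene bodies as thick bars and the 5 kb on each side as thin lines. Red circles are IDR summits, with area growing with signal, open circles are pooled summits below the IDR list with q under 0.01, and ticks are the other pooled summits. The 20 IDR summits sit at sli, fra, unc-5 and NetB, while robo1 has no pooled summit at all.

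The single replicates separated the genes in a similar way, with sli, fra and unc-5 above NetB in each. Each replicate list held 30000 peaks, so each was cut to its 7909 highest-signal peaks, the length of the IDR list. In these, fra had 7, 7, 8 and 6 summits in replicates 1 to 4, a mean of 7.0 ± 0.816 (SD, n = 4). For sli the counts were 6, 8, 4 and 5, a mean of 5.75 ± 1.71 (SD, n = 4), which overlaps the range of fra. The counts for unc-5 were 3, 6, 4 and 4, a mean of 4.25 ± 1.26 (SD, n = 4), and these overlap the range of sli. NetB had 1, 2, 0 and 2 summits, below the lowest count of unc-5. The remaining genes were at or near 0, since robo1 and robo2 had 1 summit in replicate 4 alone, NetA had 1 in replicate 2 alone, and robo3 and comm had none in any replicate. The number of members with a summit was 4, 5, 3 and 6 of 9 in replicates 1 to 4, beside 55.0%, 53.2%, 55.3% and 60.3% of all genes. Replicate 4 had fewer strong peaks, with 23.2% of its 30000 peaks at q under 0.01 against 39.6% to 46.2%, and its part in the counts for robo1 and robo2 was not tested.

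**Figure D2:**
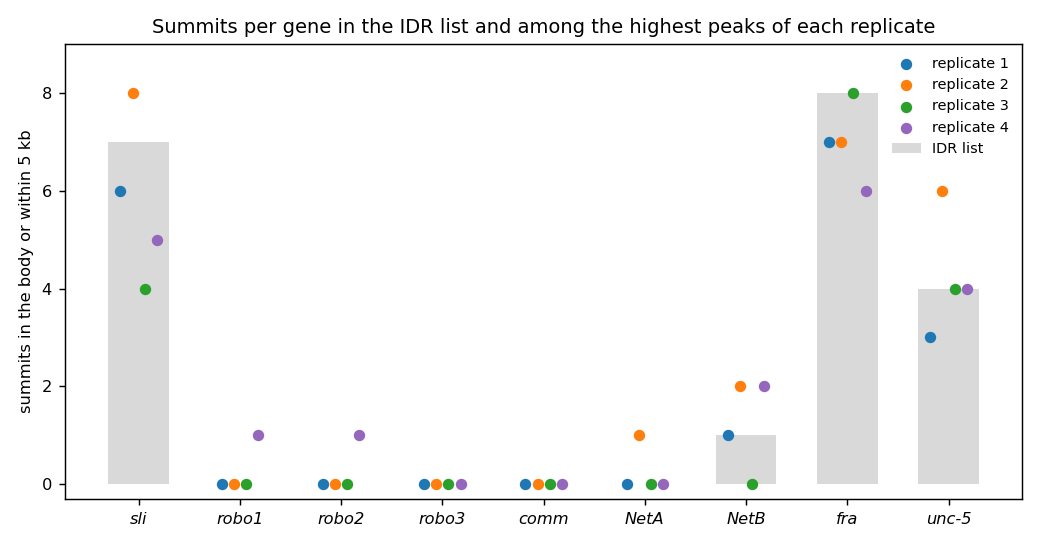
Number of summits in the body or within 5 kb of each gene, with bars for the IDR list and points for the 7909 highest-signal peaks of each replicate. The points of fra lie from 6 to 8 and those of unc-5 from 3 to 6, and robo3 and comm are at 0 in every replicate.

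The Netrin receptor gene fra (FBgn0011592, dm6 chromosome 2R, 12529053 to 12564184, plus strand) carried the strongest summit of the 20, followed by one of sli. Its first summit, at 12548198, ranked 818 of 7909 with a signal of 1264, and the overlapping peak ranked 1065, 842, 724 and 871 in replicates 1 to 4. These ranks lay close together, and all were in the upper part of each list. A further summit at 12548397 ranked 3289 and lay in the same called region of 704 bp, 12547855 to 12548558. Both are in the first intron of fra, about 19 kb into the gene, and the nearest transcription start site (TSS) belongs to CG33752, a gene nested in fra, 2509 bp upstream of the stronger summit. A summit at 12538299 ranked 2936, with replicate ranks of 2682, 2805, 2792 and 4449, lowest in replicate 4. At the start of the gene, a promoter summit at 12528863 lay 190 bp upstream of the TSS and ranked 4172, while summits at 12530098 and 12530630 lay 1045 bp and 1577 bp downstream of it and ranked 4018 and 4021. The other 2 fra summits ranked 4952 and 7748. In all, 7 of the 8 fra summits lay in the first intron, and 5 of the 8 were nearer to the TSS of CG33752 than to that of fra.

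The strongest fra summit had the most GATA-type matches, but the next strongest, at 12538299 with rank 2936, had none of the 4 sequences. A relation between matches and rank was not tested. Within 100 bp of the summit at 12548198 there were 2 matches to CTTATC and 2 to TGATAA, of which 1 of each overlap, and none to TAATTA or TAATTG. The neighbouring summit at 12548397 had 3 matches to TAATTG and 1 to CTTATC. No fra summit had TAATTA within 100 bp.

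The ligand gene sli (FBgn0264089, dm6 chromosome 2R, 15869495 to 15922118, minus strand) had its strongest summit far inside the gene. That summit, at 15885176, ranked 1122 with a signal of 1068, and the replicate ranks were 782, 1104, 1412 and 2683, lowest in replicate 4. It lay in intron 6 of the canonical transcript, 5741 bp downstream of the nearer of the 2 annotated starts of sli. It was the only sli summit with TAATTA within 100 bp, and it also had CTTATC. The remaining summits named here formed a series in the first intron, at 15914112, 15917430, 15904037, 15919520 and 15920756, with ranks of 3333, 3768, 4221, 6398 and 7119. The first of these was even across replicates, at ranks 3373, 2628, 3585 and 3690. The last was uneven, at 5554, 6038, 9801 and 14179, so it fell outside the highest 7909 peaks in replicates 3 and 4. The summit at 15904037 was nearer to CG33463, a gene nested in sli, whose TSS was 7474 bp away. A seventh summit, at 15887134 and named after its values were seen, ranked 7508 and was the only one of the 20 missing from a replicate list, that of replicate 4. At the far promoter of sli itself, a pooled summit at 15922247, 129 bp upstream of the TSS, ranked 9118 and stayed below the IDR list.

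The repulsive Netrin receptor gene unc-5 (FBgn0034013, dm6 chromosome 2R, 15340472 to 15368300, plus strand) had weaker summits, and 2 of them lay at its own starts. The summit at 15339671 lay 801 bp upstream of the first annotated TSS, ranked 4996 and had replicate ranks of 4902, 7293, 6169 and 5313. The summit at 15349936 lay 197 bp upstream of the second annotated TSS, ranked 5530 and had replicate ranks of 9495, 5755, 7025 and 3312, the highest in replicate 4. It was the only unc-5 summit with TAATTA within 100 bp. A summit at 15354651 in intron 2 ranked 5177 and had 2 matches to CTTATC and 1 to TGATAA. The fourth, at 15371636, ranked 6826 and lay past the 3' end of unc-5, 116 bp upstream of the TSS of Pms2, a DNA mismatch repair gene. That one cannot be told apart from a promoter peak of Pms2.

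**Figure D3:**
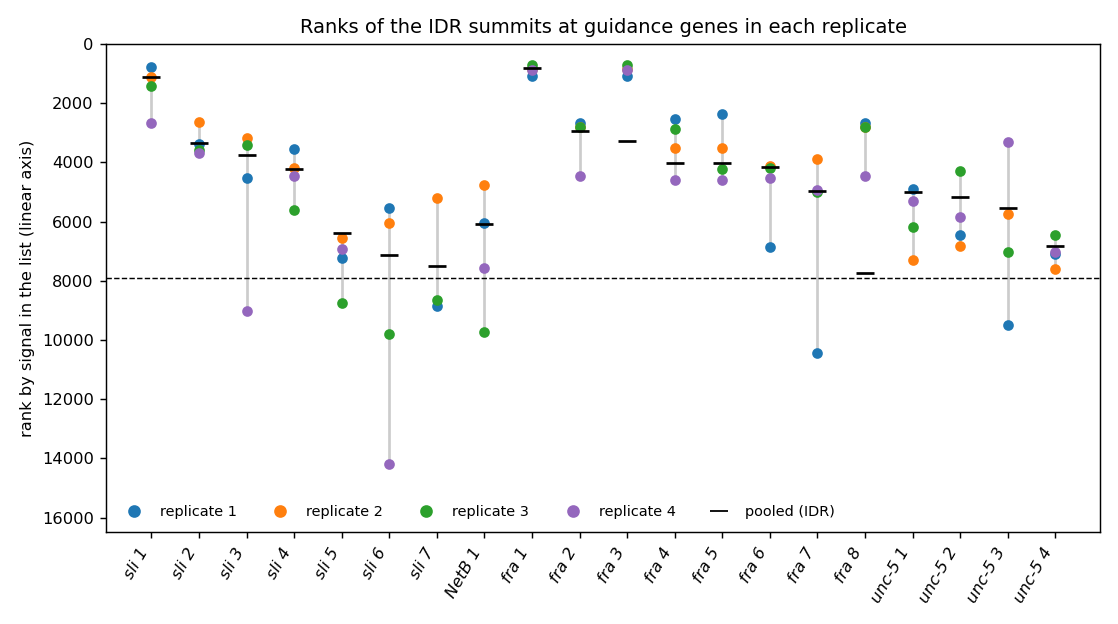
Rank by signal of the 20 IDR summits, numbered within each gene from the strongest, in the pooled list (black dash) and of the overlapping peak in each replicate (coloured points), on a linear axis with rank 1 at the top. The dashed line is rank 7909. The strongest summits of sli and fra rank 2683 or better in every replicate, and summits that share a called region share their replicate points. The fra summits at 12530098 and 12530630, in separate regions, also share their points in replicates 2 and 4.

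The Netrin ligand genes are neighbours on chromosome X and had little signal for their length. NetB (FBgn0015774, dm6 chromosome X, 14686038 to 14749376, minus strand) had 1 IDR summit, at 14717443 in intron 3, with rank 6093 and a signal of 302. Its replicate ranks were 6034, 4780, 9721 and 7573, so it fell outside the highest 7909 peaks in replicate 3. The nearest TSS was that of hog, a gene nested in NetB, 1499 bp away. NetA (FBgn0015773, dm6 chromosome X, 14604012 to 14653928, minus strand) had its strongest pooled peak at 14612534 in intron 2, at rank 8534 with a signal of 211 and q = 0.000293. The nearest TSS to it was not that of NetA but that of sbm, 9954 bp away. The replicate ranks there were 9935, 6201, 15960 and 9163, highest in replicate 2. Pooled summits of any strength were at 1.84 per 10 kb for NetA and 1.77 per 10 kb for NetB, against 2.24 over the main arms and 3.04 over the 9 members together.

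Among the Robo receptor genes, robo2 came closest to the IDR list. robo2 (FBgn0002543, dm6 chromosome 2L, 1380086 to 1420453, minus strand) had a pooled peak at 1420413, 40 bp downstream of its only annotated TSS. It ranked 7923, 14 places past the end of the IDR list, with a signal of 229.7 against 230.2 for the weakest IDR peak. Its q of 6.22e-05 is the lowest value in the pooled list. The strongest fra summit, at rank 818, has the same q, so q does not separate such peaks. The replicates ranked it 8640, 8232, 10483 and 6663, so it was among the highest 7909 in replicate 4 alone. A weaker pooled peak at 1422921, 2468 bp upstream of the TSS, ranked 11099 with q = 0.00473. Together, robo2 had 17 pooled summits, of which 2 had q under 0.01.

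Of the 8 members with pooled peaks, robo3 (FBgn0041097, dm6 chromosome 2L, 1256417 to 1296596, plus strand) had the lowest-ranked best peak. Its strongest pooled peak, at 1288805 in intron 10, ranked 17328 with a signal of 90.2 and q = 0.060, and it was listed in replicates 1 and 2 only, at ranks 18080 and 14639. None of its 18 pooled summits had q under 0.01, and none was listed in all 4 replicates. The best peak anywhere in its window ranked 14167, 14639, 16792 and 18160 in replicates 1 to 4.

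robo3 and robo2 lie in a single stretch of chromosome 2L that held no IDR summit. The stretch ran from a summit at 1201503 to one at 1433890, over 232 kb, and contained 18 protein-coding genes. It was the 32nd longest of the 7903 intervals between neighbouring IDR summits, whose median was 3.02 kb. Inside it lay 85 pooled summits, or 3.66 per 10 kb, of which 7 had q under 0.01, so peaks were called there but stayed low in rank. The 7909 highest peaks of replicates 1 to 4 had 1, 2, 1 and 3 summits in it. With pooled peaks of q under 0.01 the stretch around robo3 was 72.8 kb and no longer held robo2, and without a single replicate it was 232 to 389 kb. The stretch was looked at after the counts for these genes were known. From the body of robo3 the nearest IDR summit was 54.9 kb away, and 6.48% of all genes were at least as far from one. For robo2 that distance was 13.4 kb, reached or passed by 26.5% of all genes.

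The receptor gene robo1 (FBgn0005631, dm6 chromosome 2R, 22692524 to 22700970, minus strand) had no pooled summit at all, in a body of 8.45 kb and its flanks. Replicate 1 listed a peak with its summit at 22700409, 186 bp from a TSS of robo1, at rank 10193, and replicate 3 listed one at 22700424, at rank 15789, which overlapped it. Replicate 2 listed none. Replicate 4 listed 3 peaks that no other replicate overlapped, the strongest at 22688674 with rank 6224, 313 bp from the TSS of Ppa rather than of robo1. Another of these 3, at 22701008 with rank 8846, lay 38 bp from a TSS of robo1, so replicates 1, 3 and 4 each listed a peak within 186 bp of a robo1 start, though that of replicate 4 overlapped neither of the others. The nearest IDR summit to the body of robo1 was 14.2 kb away.

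comm (FBgn0010105, dm6 chromosome 3L, 15721511 to 15728430, minus strand) also lacked an IDR summit. Its strongest pooled peak, at 15720182, lay past the 3' end of the gene, and the nearest TSS was that of CG42570, 2363 bp away. This peak ranked 11759 with q = 0.00702 and had replicate ranks of 11364, 14149, 14988 and 14079. All 4 were below the highest 7909. At the promoter of comm, a pooled summit 92 bp downstream of the TSS, at 15728338, ranked 13807, and replicates 1, 2 and 4 ranked it 8528, 11033 and 10089. The gene comm3, a relative of comm on the same arm, had 3 IDR summits, the strongest at 15636644 with rank 1305. The related gene comm2 had none by the 5000 bp rule, but an IDR summit at 15692574 with rank 248, nearest to CG34451, lay 5020 bp from its body, and the strongest peaks within 5000 bp ranked 299, 9748, 7700 and 331 in replicates 1 to 4.

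**Figure D4:**
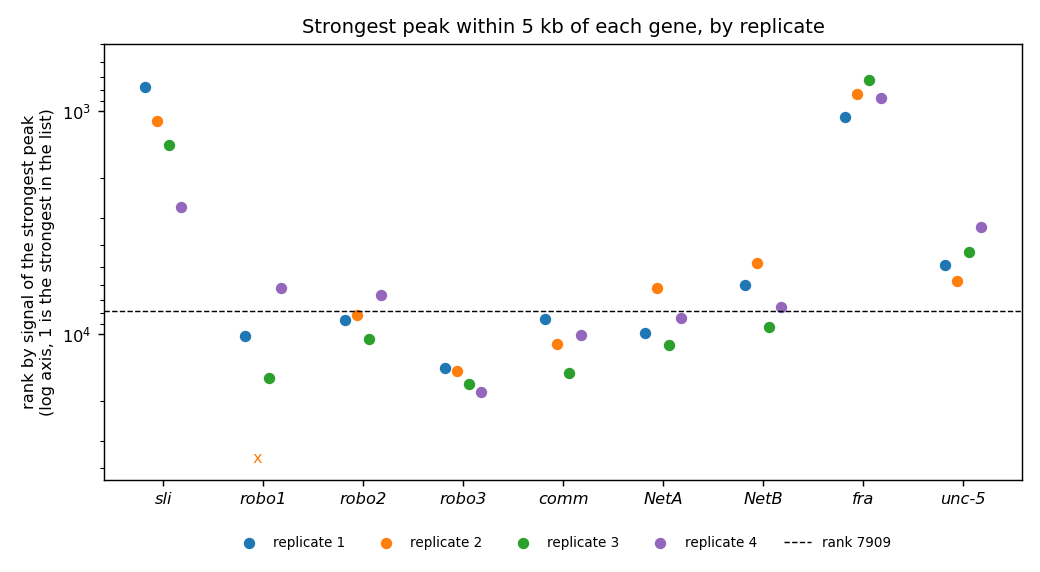
Rank by signal of the strongest peak in the body or within 5 kb of each gene, in each replicate, on a log axis with stronger peaks at the top. The dashed line is rank 7909, and the cross marks robo1 in replicate 2, where no peak was listed. All 4 points of sli, fra and unc-5 lie above the line, all 4 of robo3 and comm lie below it, and the other genes have points on both sides.

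Counting weaker peaks changed which genes had a summit. Of the 126 pooled summits at the members, 36 had q under 0.01, and 16 of these were not in the IDR list. With those, 7 of 9 members had a summit, beside 63.2% of all genes, and robo1 and robo3 were the exceptions. All IDR peaks were the 7909 highest-signal pooled peaks, so the 16 rank past 7909 by selection. How few of them reach the highest 7909 of the replicates is therefore largely set in advance. Of the 16, 13 were listed in all 4 complete replicate lists, and 1 was among the highest 7909 peaks of every replicate. That 1, at 12529090 of fra, overlaps the same replicate peaks as the promoter summit of fra in the IDR list. Among the 20 IDR summits, 19 were listed in all 4 complete lists and 13 were among the highest 7909 of every replicate. Replicates 1 to 4 recovered 85%, 100%, 80% and 85% of the 20, a mean of 87.5% ± 8.66 (SD, n = 4), and the IDR list was made from these replicates. The same shares over all IDR summits are not given here, so whether this support is usual for the list cannot be told.

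The members' summits lay mostly in introns. Of the 20, 16 (80%, Wilson 95% interval 58.4 to 91.9) were in introns and 4 (20%, 8.07 to 41.6) within 1000 bp of a TSS, and none was in an exon. Over all IDR summits the shares were 33.3% and 54.9%. The members' summits lay a median of 2653 bp from a TSS, and all IDR summits 792 bp. The replicates' own highest peaks gave promoter shares of 17.6%, 25%, 25% and 36.8% at the members, a mean of 26.1% ± 7.94 (SD, n = 4). Each was below the share of all IDR summits, which is a different set of peaks. The promoter share over all the highest peaks of each replicate is not given here. Summits of 1 gene are not independent of each other, intervals cover counting error only, and the difference was not tested. Long introns of these genes also leave more room away from a start, and 5 of 7 sli summits and 7 of 8 fra summits were in the first intron. In rank the members' summits were below the middle of the list, with a median of 4586.5 against 3955 for the whole list, and 6 of 20 were among the 3954 strongest, 3 each at sli and fra.

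Either homeodomain-type sequence was found at 7 of the 20 summits, or 35%, against 40.9% of all IDR summits and 15 of the 40 flanking windows of the same summits, or 37.5%. TAATTA lay within 100 bp of 2 of the 20 summits (10%, Wilson 95% interval 2.79 to 30.1), against 19.7% of all IDR summits and 12.2% of their flanks. In flanks of the members' own summits it was found in 7 of 40 windows, or 17.5%. The share at the members was 5.88%, 8.33%, 12.5% and 10.5% in replicates 1 to 4, a mean of 9.31% ± 2.85 (SD, n = 4). TAATTG lay at 5 of 20 summits, or 25%, against 26.5% of all. CTTATC lay at 6 of 20 (30%, Wilson 95% interval 14.5 to 51.9), against 35.4% of all and 12.2% of flanks. The replicates' own summits gave 47.1%, 33.3%, 50% and 42.1%, a mean of 43.1% ± 7.30 (SD, n = 4). All 4 were above the share of the 20. TGATAA lay at 7 of 20, or 35%, against 35.1% of all. Either GATA-type sequence was found at 11 of 20 summits, at 9 of the 40 flanking windows of the same summits, and at 49.1% of all IDR summits. At 6 of the 20 none of the 4 sequences was present. With 20 summits the intervals are wide and include the shares of all summits for all 4 sequences, which does not show that the shares are alike. Median GC content was 40.0% at the members' summits and 38.8% at all.

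**Figure D5:**
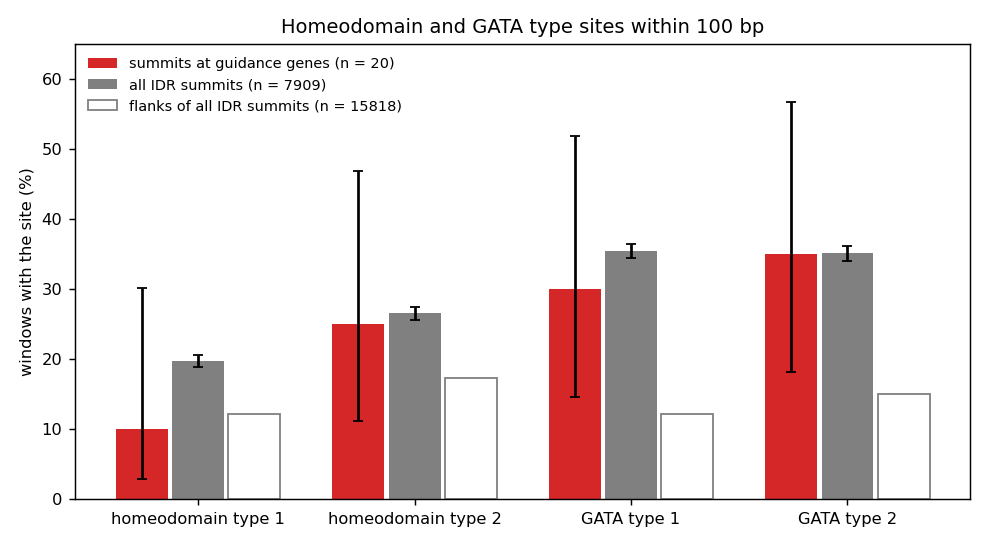
Share of windows of 100 bp on each side of the summit that hold a site, for the 20 summits at the guidance genes, all 7909 IDR summits, and flanks of all IDR summits centred 1000 bp to either side. Homeodomain type 1 is TAATTA and type 2 is TAATTG, whereas GATA type 1 is CTTATC and type 2 is TGATAA, and error bars are 95% Wilson intervals. The intervals of the guidance genes include the share of all summits for each of the 4 sites.

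Other genes of these pathways and of their regulation were counted in the same way. Of 31 such genes with an annotated symbol, 21 had an IDR summit, beside the 55.4% of all genes. Among regulators and co-receptors of Robo, 5 of 6 had one, led by Nedd4, a ubiquitin ligase gene, at rank 302, dlp, a glypican gene, at rank 1187, comm3 at rank 1305 and Sdc, the syndecan gene, at rank 1488. The summit counted for Nedd4 was nearest to Jon74E and that for Sdc to Acox57D-d. Both genes also had an IDR summit in the body that was nearest to the gene itself, at rank 344 for Nedd4 and 2550 for Sdc. Among cytoplasmic effectors 10 of 13 had one, led by RhoGAP93B, a GTPase-activating protein gene, at rank 46, Abl, a tyrosine kinase gene, at rank 50, Mtl, a Rac-family GTPase gene, at rank 191, and trio, a guanine nucleotide exchange factor gene, at rank 1124. Of these 4 leading summits, only that of Abl was nearest to the gene itself, and those of RhoGAP93B, Mtl and trio were nearest to HHEX, CG5611 and CG9205. RhoGAP93B also had an IDR summit 73 bp from its body, at rank 3734 and nearest to RhoGAP93B. Pak, Sos and Cdc42 had none. Dscam1, which encodes another Netrin receptor, had 1 summit at rank 4998, and Psn, the presenilin gene, had none. Among transcription factors that act on guidance genes, 5 of 10 had a summit, led by lola at rank 740, grn at rank 883, sim at rank 1620 and tup at rank 2610, while HGTX, eve, mid, vvl and D had none. The summit counted for tup was nearest to CG10602. Outside the 5000 bp rule, the IDR summits closest to mid and vvl, 15203 bp and 21468 bp from their bodies, had mid and vvl as nearest TSS.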

How the data were processed

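Anti-GFP chromatin immunoprecipitation and sequencing libraries of 4 biological replicates formed 1 group, per the labels. The deposited peak lists are in narrowPeak format on dm6, with 1 for each replicate, 1 of the pooled samples and 1 filtered by IDR from these, per the deposited file lists. How reads were aligned, how peaks were called and which IDR threshold applied is not given in the sources used here, and signal tracks and the control experiment that the labels name were not analysed here. The authors' signal value is a score of each peak in the deposited lists and served only for ranks and descriptions inside 1 list. The deposited q-value is stored as −log10 and served to count peaks with q under 0.01 and to describe single peaks. Peak starts, ends and summits are the authors' own, written here 1-based. The lists hold no read counts, so depth is unknown and their fixed length of 30000 peaks says nothing of enrichment. All IDR peaks were the 7909 highest-signal pooled peaks. No identical peak occurred in different replicates.

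Genes and TSSs came from Ensembl release 115 (BDGP 6.54), protein-coding, on 6 chromosome arms, with all peaks inside the chromosome ends of the reference. A promoter is within 1000 bp of a TSS. A replicate supports a peak if its peaks overlap it by 1 bp, and its rank is that of the strongest overlapping peak. Sequences were searched on both strands within 100 bp of summits. Means and SDs are over replicates, intervals are 95% Wilson intervals, and no test was run, because there is 1 group and the members and lists were chosen with earlier results of these data known. Of 32 other pathway genes 31 matched a symbol, and srGAP did not. The text names all 9 members, up to 6 summits for each by signal, the strongest pooled peak where there is no IDR summit, and the leading genes of other lists. The sequences of members without an IDR summit and the summit-free stretch were added after their values were seen. To leave out a replicate, IDR peaks were kept where the 7909 strongest peaks of all 3 remaining replicates overlapped them. The sequence at 1 further summit is not reported here. Counting and motif search were tested on simulated data. Tables were made with Python 3.11.15, pandas 2.3.3 and numpy 2.4.6, intervals with scipy 1.17.1, and plots with matplotlib 3.10.9.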

Additional observations from a re-analysis of the deposited data

Results flagged for a closer look

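Of 47 measures compared over the 4 replicates, 8 had 1 replicate far from the other 3, and about 1 in 20 would be so by chance for measured values. In 3 of them the count of summits among the highest peaks was 1 in a single replicate and 0 in the others, so that 1 summit is enough: robo1 and robo2 in replicate 4 and NetA in replicate 2. The other 5 are ranks of peaks at fra, and they rest on 3 replicate peaks. The summits at 12538299 and 12538501 of fra share a peak that ranked 4449 in replicate 4 and 2682 to 2805 in the others. The promoter summit of fra at 12528863 and the pooled summit at 12529090 share a peak that ranked 6870 in replicate 1 and 4119 to 4539 in the others. The summit at 12540818 of fra ranked 10445 in replicate 1 and 3900 to 4993 in the others.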

How the results depend on the processing

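The number of members with a summit moved from 4 to 2 among the 3954 strongest IDR peaks, to 7 with pooled peaks of q under 0.01 and to 8 in the whole pooled list, and ranged from 3 to 4 without 1 replicate. It was 4 with the gene body only or 2000 bp, 6 with 10000 bp and 3 by nearest TSS. Of all genes, 55.4% had a summit by the main rule and 63.2% with pooled peaks of q under 0.01. For the other settings the share of all genes is not given here. Whether these changes are particular to the members was not tested. The 20 summits became 6 among those strongest peaks and ranged from 13 to 15 without 1 replicate, with 13 without replicate 2. Without replicate 1, 2 or 4 the NetB summit was lost, and sli kept 3 or 4 of its 7 without any 1 replicate, whereas fra kept 7 or 8 of its 8. These lists are also shorter, at 5339 to 5982 peaks. The 8 fra summits lay in 6 called regions and the 7 sli summits in 7. Summits of a shared region were kept or lost together. Within 10000 bp, comm, NetA and unc-5 gained 1 summit each and sli gained 5, of which 4 were nearest to Gpo1. Replicate support was 72.5% with a 50% reciprocal overlap, 78.75% with summits within 100 bp and 98.75% in the complete lists, and 83.3% to 90% when single replicates were left out, where the promoter share was 20% to 26.7%. TAATTA was at 0% of the members' summits within 50 bp, and the share was 25% with TAATTG and 35% with either, ranging from 6.67% to 13.3% without 1 replicate. CTTATC was at 20% within 50 bp, and the share was 55% with either GATA-type sequence, ranging from 40% to 46.2% without 1 replicate. In alternatives chosen after seeing the data, the summit-free stretch around robo3 was 72.8 kb with pooled peaks of q under 0.01 and 170.4 to 377.8 kb in the highest peaks of single replicates, and it held robo2 in replicates 1 to 3 but not in replicate 4. No paired analysis was possible because there is only 1 group.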
